A study of Equus caballus with 6 samples.

Results

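Among the small RNAs called as piRNAs in Mongolian horse testis, the sequences described here begin with cytidine and carry a base other than adenine at position 10, counted from 1 at the 5′ end. They were chosen by these letters alone, at any length from 25 to 32 nt, and no count entered the choice. The table held 225880 such sequences among 4936717 (4.58%), with 496675 of 17914237 reads. Below, C-first sequences without adenine at position 10 are called C-first members. The groups were mature testis and immature testis of the Mongolian horse, with 3 small RNA libraries each. All libraries were made from testis RNA. The labels give no age and do not state that each library came from another animal, so p-values measure the spread between libraries. In whole tissue, fewer cells of a type and less RNA per cell cannot be told apart.

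PIWI proteins of the germ line carry piRNAs, which guide them to transposon transcripts and silence these. Primary piRNAs mostly begin with uridine. In the ping-pong cycle a piRNA guides the cut of a transcript, and that cut sets the 5′ end of a secondary piRNA, which tends to carry adenine at position 10. The C-first members have neither letter. The rule thus used both marks only to leave sequences out, and other small RNAs of this size can stand among the members.

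The most abundant C-first members by mean level over the 6 libraries are printed first, because the results on single sequences turn on them. Capitals mark positions 1 and 10, and uridine is written as t.
uniq_2987623: CcccatgatGgaactgaggatctgaga
uniq_172762: CtgctgatcGatgtggtgatgctgtg
uniq_4060153: CtctgtgctGattgtcacgttctgata
uniq_172425: CtgctgatcGatgtggtgatgctgtgc
uniq_174650: CtgctgatcGatgtggtgatgctgtgctct
uniq_1864168: CagaaactgTgagataataaatgtgtgtt
uniq_4931184: CtcacttggCtggacacgctctggag
uniq_2909378: CaccaagatGagtggtggaaatctgatt
uniq_4334294: CaggtgtgtGgaaaactaatgactgagt
The other member of the first 10, uniq_2818794, is a fragment of 18S rRNA and is given by its identifier.

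Further members are shown because each was among the first 3 with its base at position 10, with thymine for the first pair and cytosine for the last.
uniq_2840641: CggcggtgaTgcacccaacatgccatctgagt
uniq_4721357: CttcattctTtggactcatctagagct
uniq_3969839: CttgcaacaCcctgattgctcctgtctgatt

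The next 5 lead the members called higher in mature testis on both scales used below.
uniq_4624556: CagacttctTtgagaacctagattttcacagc
uniq_3797724: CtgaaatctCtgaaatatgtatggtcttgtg
uniq_3664927: CagaagaacTttgttgacaagaattccaga
uniq_4292137: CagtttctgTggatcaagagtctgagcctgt
uniq_1871373: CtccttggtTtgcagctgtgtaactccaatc

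C-first members held a smaller part of the reads in mature testis, but not a smaller part of the distinct sequences. They made up 2.43%, 2.37% and 2.53% of the reads in the mature libraries, against 4.06%, 3.21% and 3.68% in the immature libraries. Each mature library lay below each immature one. The means were 2.44% ± 0.0797 in mature, against 3.65% ± 0.428 in immature testis (SD, n = 3; exact two-sided permutation p = 0.1, the smallest p that 3 against 3 libraries can give). The same comparison was made for 13 measures, and a p of 0.1 becomes 0.13 after Benjamini-Hochberg adjustment over them. The library totals behind these shares were 4032042 to 4550970 reads in mature and 1382083 to 2347351 in immature testis, and the 95% Wilson intervals reached at most 0.0329 percentage points to either side. Counted as distinct sequences, the members were 4.33% ± 0.142 of those found in a mature library and 4.14% ± 0.285 in an immature one (exact permutation p = 0.3), and the groups overlapped.

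The C-first members were a sparse set. Summed over the 6 libraries, 187130 of the 225880 members (82.8%) had a single read, against 76.7% of the sequences outside the set. Such single reads made up 28.3% ± 1.72 of the members' reads in mature and 53.7% ± 1.27 in immature testis. Only 475 members (0.210%) were found in all 6 libraries, against 0.355% of the other sequences. Members seen in both groups numbered 8877 (3.93%), against 6.37% of the other sequences. In mature testis 42.7% of the members' reads came from a sequence also seen in immature testis, and in immature testis 33.1% came from one also seen in mature testis; outside the set these shares were 66.5% and 41.5%. The 100 most abundant members of a library held 18.2% ± 1.61 of its member reads in mature and 18.3% ± 0.83 in immature testis (exact permutation p = 1). This rested on the single reads: without sequences read once in all, the 100 held 25.4% ± 1.62 in mature, against 39.4% ± 2.01 in immature testis, with no overlap (exact permutation p = 0.1). The 10 most abundant held 6.71% ± 1.23 and 9.52% ± 0.881 in mature and immature testis.

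Longer members prevailed in mature testis and shorter ones in immature testis. Lengths of 29 to 32 nt made up 64.4%, 61.9% and 62.3% of the members' reads in the mature libraries, against 29.3%, 27.7% and 25.2% in the immature libraries, with a wide gap between the groups. The means were 62.9% ± 1.36 and 27.4% ± 2.06 (n = 3 each, SD; exact permutation p = 0.1), and mean length came to 28.85 nt ± 0.0510 in mature, against 27.6 nt ± 0.0890 in immature testis. Members of 29 nt led in mature testis, with 20.5% ± 1.93 of the members' reads, while 27 nt led in immature testis, with 33.25% ± 0.726. As levels relative to all called piRNA reads, members of 29 to 32 nt stood at 15365 CPM ± 573 in mature, against 10031 CPM ± 1633 in immature testis, where CPM is the read count scaled to the total of the library's column. Members of 25 to 28 nt stood at 9075 CPM ± 465 and 26482 CPM ± 2923 in mature and immature testis. The lower share of the members in mature testis thus lay in lengths up to 28 nt.

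Within a mature library the C-first members were shorter than the remaining reads, while in immature testis this depended on the processing. With all reads, their share of 29 to 32 nt was below that of the other reads in 6 of 6 libraries, with 62.9% against 71.7% in mature and 27.4% against 36.5% in immature testis (exact sign-flip permutation test over libraries, p = 0.03125, which is the smallest it can give; adjusted p = 0.0625 over 6 such tests). The difference of members minus other reads was −8.82 points in mature and −9.04 points in immature testis, and these overlapped between the groups (exact permutation p = 1). With structured RNA matches left out, the share of 29 to 32 nt was 62.85% in members and 71.2% in other reads of mature testis, but 27.4% and 27.9% in immature testis, where the members of replicate 1 had the higher share. The members' mean length was then above that of the other reads in each immature library, at 27.72, 27.65 and 27.54 nt in members against 27.51, 27.55 and 27.53 nt in the others. Without the 100 most abundant sequences the shares were 62.97% in members and 70.1% in others of mature testis, and 28.6% and 28.2% in immature testis. With each distinct sequence counted once they were 53.4% and 57.8% in mature, and 25.9% and 26.6% in immature testis.

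To see length apart from the choice of 5′ end, members with the same first 20 bases were grouped. The set had 154253 such 5′ ends, of which 82.4% were represented by 1 sequence. For the 40 ends with at least 10 reads in every library, the mean length was 28.7 nt ± 0.0673 in mature and 28.45 nt ± 0.0392 in immature testis, a difference of 0.218 nt (exact permutation p = 0.1). This was a small part of the 1.22 nt by which the read-weighted means of all members differed. Of the 40 ends, 30 had the higher mean length in mature testis, and for 8 of them no mature library overlapped an immature one. Outside the set, 1477 ends met the same condition and differed by 0.591 nt. Of these, 1248 had the higher mean length in mature testis, and 773 did so without overlap between mature and immature libraries. All ends compared here, inside and outside the set, are the abundant ones shared by all libraries and do not stand for the sparse remainder.

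Of the bases at position 10, guanine differed most between the groups. It stood there in 31.3%, 31.3% and 31.8% of the members' reads in the mature libraries, against 47.8%, 45.4% and 46.2% in the immature libraries (means 31.5% ± 0.284 and 46.5% ± 1.25, SD, n = 3; exact permutation p = 0.1). Uridine held 43.1% ± 0.556 in mature and 33.3% ± 0.748 in immature testis, and cytosine 25.4% ± 0.443 and 20.2% ± 0.527 (exact permutation p = 0.1 for each). As levels, members with guanine at position 10 stood at 7701 CPM ± 319 in mature, against 16997 CPM ± 2437 in immature testis. Members with uridine there stood at 10526 CPM ± 244 and 12138 CPM ± 1182, and members with cytosine at 6213 CPM ± 265 and 7377 CPM ± 678. With each distinct sequence counted once, guanine stood there in 33.6% and 36.7% of the members of mature and immature testis, so most of the difference lay in how often some sequences were read. Without sequences read once in all, guanine stood there in 30.7% ± 0.392 of the members' reads in mature, against 59.1% ± 2.91 in immature testis. Guanine also differed at other positions. Among C-first reads without adenine at the position in question, it was lower in mature testis at position 8 (33.3% against 41.6%) and higher there at position 9 (45.8% against 29.1%) and position 11 (48.6% against 40.25%). Counted once per distinct sequence, guanine held 31.9% of position 9 in mature, against 30.2% in immature testis, and at position 11 the order turned, with 36.4% in mature and 36.8% in immature testis (exact permutation p = 0.3).

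The second base differed as well. Adenine followed the first cytosine in 53.7% ± 1.86 of the members' reads in mature and 39.5% ± 3.13 in immature testis, and uridine in 30.15% ± 1.04 and 39.7% ± 2.63. Guanine, which would make a CpG, was the rarest second base, with 3.61% ± 0.0556 and 4.57% ± 0.409. Members beginning with CA stood at 13138 CPM ± 888 in mature, against 14370 CPM ± 1254 in immature testis (exact permutation p = 0.2), where the groups overlapped. Members beginning with CT stood at 7364 CPM ± 133 and 14567 CPM ± 2608 (exact permutation p = 0.1). These and other tests of single bases, levels and RNAs outside the 13 measures are unadjusted. The GC share of bases 11 to 25 was 46.9% ± 0.208 and 48.4% ± 0.204 in mature and immature testis.

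Of all reads starting with cytidine, 50.1% ± 1.9 lacked adenine at position 10 in mature, against 58.7% ± 3.49 in immature testis (n = 3 each, SD; exact permutation p = 0.1). Among reads starting with adenine the shares were 52.04% ± 1.51 and 54.9% ± 2.78, and among reads starting with uridine 71.1% ± 0.386 and 70.7% ± 0.779. Reads starting with guanosine reached 70.2% ± 6.5 in mature and 91.5% ± 1.85 in immature testis. The order of the groups among C-first reads turned with the weighting: with each distinct sequence counted once, 64.2% of C-first sequences lacked the adenine in mature and 57.7% in immature testis. With the 100 leading sequences of every library left out, 58.9% and 57.8% of the C-first reads lacked it in mature and immature testis.

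The difference in guanine at position 10 was carried in part by 3 groups of members with the same 5′ end. The leading 5′ end begins the sequences uniq_172762, uniq_172425 and uniq_174650 printed above, and 91 members of 8 lengths shared it. This family stood at 148, 189 and 195 CPM in the mature libraries, against 3300, 1778 and 1863 CPM in the immature libraries. Its levels did not overlap, and the mean was 13.1 times higher in immature testis (177 CPM ± 25.4 in mature, against 2314 CPM ± 855 in immature testis; exact permutation p = 0.1). The 3′ ends of this family formed a ladder: 26 nt, 27 nt and 30 nt held 19.2%, 23.0% and 20.9% of its reads in mature and 26.8%, 26.1% and 17.1% in immature testis. Its reads averaged 28.3 nt ± 0.140 in mature, against 27.9 nt ± 0.362 in immature testis, and the groups overlapped.

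The families of uniq_2987623 and uniq_4060153 ended almost always at a single length. The family of uniq_2987623 had 34 sequences and stood at 55.9 CPM ± 20.8 in mature, against 765 CPM ± 77.6 in immature testis. Reads of 27 nt made up 96.7% of it in both groups. The family of uniq_4060153, also with 34 sequences, stood at 66.8 CPM ± 21.6 in mature, against 703 CPM ± 175 in immature testis, with 96.5% and 95.6% of its reads at 27 nt. All members of these 3 families have guanine at position 10. Together they held 1.23% ± 0.255 of the members' reads in mature and 10.2% ± 1.86 in immature testis, and 37.5% of the difference in CPM of members with guanine at position 10. Without them guanine stood at position 10 in 30.65% ± 0.386 of the members' reads in mature and 40.35% ± 0.584 in immature testis, and the set made up 2.42% and 3.29% of all reads.

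A pair of short motifs, picked after the leading sequences had been seen and therefore given no test, was more frequent in the members of immature testis. Box C/D small nucleolar RNAs, which guide the methylation of ribosomal RNA, carry UGAUGA near their 5′ end and CUGA near their 3′ end. In the read strand, TGATG was searched in the first 16 bases and CTGA in the last 8 bases, windows that cannot overlap. Both were found in 1683 members, among them uniq_2987623 and uniq_2840641, and these took 0.916%, 1.43% and 0.978% of the members' reads in the mature libraries, against 6.58%, 5.41% and 5.28% in the immature libraries. Outside the set the share was 0.333% ± 0.0508 in mature and 1.44% ± 0.406 in immature testis. It was higher among members than outside the set in 6 of 6 libraries. Since the motifs were picked after the leading members had been seen, this order is no support for a difference. Counted once per distinct sequence, both motifs were held by 0.715% of members and 0.327% of other sequences in mature testis. In immature testis these shares were 1.47% and 0.497%. The members with both motifs stood at 270 CPM ± 62.0 in mature, against 2117 CPM ± 492 in immature testis. CTGA in the last 8 bases alone was found in 9.24% ± 0.590 of the members' reads in mature and 18.7% ± 0.286 in immature testis, against 7.96% and 9.25% of the reads outside the set. Among members with guanine at position 10 both motifs were held by 2.03% of the reads in mature, against 8.33% in immature testis. With uridine there the shares were 1.015% and 5.29%, and with cytosine 0.119% and 0.607%. The pair of motifs was thus not confined to members with guanine at position 10. No gene name is paired with these sequences in the sources used here, and a match is only a match of letters.

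Matches to a list of 19 ribosomal and other structured RNAs were a small part of the set and were fewer in mature testis. The list holds no small nucleolar RNA and not all ribosomal RNAs or tRNAs, so fragments of unlisted RNAs are not counted. Members matching the list with up to 2 mismatches took 0.751% ± 0.285 of the members' reads in mature, against 3.36% ± 0.410 in immature testis (n = 3 each, SD; exact permutation p = 0.1). This was less than in the remaining reads, with 2.32% ± 1.22 and 14.6% ± 3.26, in 6 of 6 libraries (exact sign-flip permutation p = 0.03125; adjusted p = 0.0625). The rule asks for cytidine first, so fragments of these RNAs that start with another base fall among the remaining reads. The test cannot tell this effect of the rule from a trait of the members. The order of members and remaining reads turned with the weighting. Counted once per distinct sequence, matches made up 0.338% of members and 0.226% of other sequences in mature testis, and 0.717% and 0.397% in immature testis, with the members higher in each library. Without the 100 most abundant sequences the shares were 0.757% and 0.767% in mature testis, and 2.86% and 2.60% in immature testis, where the members were higher in each library. Of 725 matching members, 501 matched 18S rRNA, the RNA of the small ribosomal subunit, and stood at 80.5 CPM ± 10.6 in mature, against 1028 CPM ± 128 in immature testis. The 18S fragment uniq_2818794 alone, of 27 nt and an exact match, stood at 5.798, 4.22 and 5.49 CPM in the mature libraries, against 221, 288 and 302 CPM in the immature libraries, 52.3 times higher in immature testis. Y RNAs, small RNAs of the Ro ribonucleoprotein, were also lower in mature testis: RNY3 matches stood at 1.84 CPM ± 0.850 and 35.4 CPM ± 10.9, and RNY4 matches at 1.11 CPM ± 0.627 and 22.7 CPM ± 10, in mature and immature testis (exact permutation p = 0.1 for each). The 17 matches to the glycine tRNA with anticodon GCC included 0 exact ones. They stood at 146, 29.5 and 43.7 CPM in the mature libraries and at 83.2, 28.5 and 14.4 CPM in the immature ones, with replicate 1 highest in both groups (exact permutation p = 0.5). The 11 matches to 5.8S rRNA did not separate the groups either, at 2.81 CPM ± 0.805 and 1.75 CPM ± 0.403 (exact permutation p = 0.2).

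Part of the reads of C-first members came from sequences with a close relative that begins with uridine. For 40.2% ± 2.02 of the members' reads in mature and 19.2% ± 1.91 in immature testis, the same library held a sequence with the same bases 2 to 25 and uridine at position 1 (n = 3 each, SD; exact permutation p = 0.1). This relative had more reads than the member for 6.19% ± 0.135 of the members' reads in mature and 1.63% ± 0.214 in immature testis. A U-first sequence starting 1 nt upstream or 1 nt downstream, with the adjoining 20 bases shared, was found for 48.0% ± 1.60 in mature and 34.5% ± 1.26 in immature testis (exact permutation p = 0.1). Upstream neighbours accounted for 32.97% ± 1.41 and 24.4% ± 0.874. Downstream ones accounted for 23.55% ± 0.641 and 22.3% ± 1.79, where the groups overlapped (exact permutation p = 0.3). After thinning all libraries to 1382083 reads, the shares were 30.9% and 18.3% for the same bases 2 to 25, and 42.5% and 33.25% for the shifted neighbour, still higher in each mature library. As another alternative, sequences with a single read over all libraries were left out, without thinning. A relative with the same bases 2 to 25 was then found for 45.7% in mature and 36.05% in immature testis (exact permutation p = 0.1). A shifted neighbour was found for 52.7% of the members' reads in mature and 52.8% in immature testis (exact permutation p = 1). Taken apart, both directions were lower in mature testis. Upstream neighbours were found for 36.0% in mature and 40.8% in immature testis, and downstream ones for 25.6% and 34.9% (exact permutation p = 0.1 for each).

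C-first reads that do carry adenine at position 10 had a larger contrast when weighted by reads. A U-first relative with the same bases 2 to 25 was found for 63.7% ± 1.15 of them in mature and 13.8% ± 5.73 in immature testis. The members thus lay 23.5 points below these reads in mature and 5.49 points above them in immature testis, and the differences did not overlap between mature and immature libraries (exact permutation p = 0.1). For the shifted neighbour the differences were −16.5 points in mature and 4.41 points in immature testis (exact permutation p = 0.1). These differences depended on the weighting. Counted once per distinct sequence, the same bases 2 to 25 were found with uridine first for 16.05% of members and 15.8% of C-first sequences with adenine at position 10 in mature testis, and for 3.85% and 3.40% in immature testis. The shifted neighbour was then found for 33.7% and 30.7% in mature, and for 20.85% and 19.97% in immature testis.

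Single leading members showed how differently these relatives stood. The U-first sequences starting 1 nt upstream of uniq_2909378 stood at 21.1 CPM in mature, against 438 CPM in immature testis, close to the 22.7 and 455 CPM of the family of the member itself. For uniq_1864168 the family stood at 583 CPM in mature, against 90.6 CPM in immature testis, while its U-first relatives with the same bases 2 to 25 stood at 7.99 and 0.142 CPM. The family of uniq_4931184 stood at 450 and 47.9 CPM in mature and immature testis and had no U-first neighbour 1 nt upstream.

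The rule leaves no U-first partner for a ping-pong overlap of 10 nt, because the partner's first base pairs with the member's base 10. A partner whose first 10 bases are the reverse complement of the member's first 10 was found for 39.5% ± 4.13 of the members' reads in mature and 31.95% ± 4.41 in immature testis. Windows shifted by 1 to 5 nt, where U-first partners count, gave a mean of 67.5% ± 0.501 and 65.1% ± 3.75, so the excess at 10 nt was −28.1 points ± 4.58 and −33.1 points ± 1.65 (exact permutation p = 0.2). The sign of that excess is set by the rule and is no result. A comparison added after the data were seen left U-first partners out of the shifted windows. The excess was then 9.16 points ± 2.85 in mature and 4.96 points ± 2.63 in immature testis (exact permutation p = 0.2). It was positive in every library. Uridine inside a shifted window pairs with no member's base 10, so the rule bears on this sign too.

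Members were then tested one by one, with edgeR's quasi-likelihood test fitted on all sequences that passed a filter on low counts. Only 620 members passed it, and since a sequence can pass through the group where it is high, these do not stand for the set. With libraries scaled to their column totals, 253 of the 620 (40.8%) were called higher in immature testis at a Benjamini-Hochberg adjusted p under 0.05, against 20.3% of all 31788 tested sequences. Called higher in mature testis were 353 (56.9%), against 77.7% of all tested. With TMM factors, which centre the bulk of the tested sequences, 266 (42.9%) were called higher in immature testis, against 21.9% of all tested, and 40 (6.45%) higher in mature testis, against 8.41%. On both scales 40 members were mature-high and 253 immature-high. These are all the mature-high calls with TMM factors and all the immature-high calls with column totals. Calls on both scales were not counted over all tested sequences, so these counts show nothing particular to the members. The median log2 fold change of all tested sequences was 3.15 with column totals and 0.62 with TMM factors, and that of the tested members 2.43 and −0.10. The members' median with column totals was −1.95, −1.23 and −2.00 without mature replicate 1, 2 or 3, one at a time. The filter was then applied anew and let through 601, 619 and 591 members. The median of all tested sequences stayed at 3.03, 3.03 and 2.97. Without immature replicate 1, 2 or 3 the members' median was 2.39, 3.15 and 2.69. The mature-high count was 666 to 690 without any 1 immature library, where the filter let through 1058 to 1097 members. Over all tested sequences it was then 39283 to 40498, of 51730 to 52980 tested.

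Called members differed between the directions in length and letters, but these splits were not counted for called sequences outside the set. They therefore show no trait particular to the members. Among all reads outside the set, lengths of 29 to 32 nt also made up more in mature testis, at 71.7%, against 36.5% in immature testis. With column totals, 76.5% of the 353 mature-high members were of 29 to 32 nt, and 30.4% of the 253 immature-high ones. Guanine stood at position 10 in 22.4% and 69.6% of them, and adenine at position 2 in 60.3% and 30.8%. Both motifs were held by 1 mature-high and 39 immature-high members, and structured RNA matches numbered 0 and 27. The motifs were picked after the leading members had been seen, so their counts are no test. The mature-high members took 23.9% of the members' reads in mature and 1.68% in immature testis. The immature-high members took 2.52% and 20.7%.

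The 5 members named for immature testis are the first 5 printed. uniq_2987623 stood at 33.3, 53.8 and 26.2 CPM in the mature libraries, against 600, 476 and 499 CPM in the immature libraries. Its groups lay far apart (log2 fold change −3.80 ± 0.75 SE with column totals, edgeR adjusted p = 1.2e-06, and −6.40 with TMM factors, adjusted p = 3.89e-16). Sequences that differ from it in the last base only ended in cytosine or thymine, and had 673 reads beside its own 3151.

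uniq_172762 stood at 19.8, 33.7 and 32.1 CPM in the mature libraries, against 708, 343 and 484 CPM in the immature libraries (log2 fold change −4.16 ± 0.76 SE, edgeR adjusted p = 1.82e-07). uniq_4060153 stood at 36.2, 59.8 and 36.7 CPM, against 606, 360 and 503 CPM (−3.47 ± 0.74, edgeR adjusted p = 5.09e-06). For both, immature replicate 1 was highest and replicate 2 lowest. uniq_172425, which extends uniq_172762 by a cytosine, was 14.7 times higher in immature testis, at 29.1 CPM ± 5.5 in mature, against 428 CPM ± 76.5 in immature testis. uniq_174650, longer still, stood at 26.1, 28.3 and 34.1 CPM in the mature libraries, against 591, 235 and 188 CPM in the immature libraries. Its level in immature testis rested on replicate 1: the ratio of immature to mature testis was 11.5 with all libraries and 7.17 without that one.

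uniq_2909378, uniq_4334294 and uniq_2840641 were 9.93 to 19.5 times higher in immature testis. Of these, uniq_2909378 stood at 12.6, 17.4 and 10.8 CPM in the mature libraries, against 127, 287 and 380 CPM in the immature libraries, with immature replicate 1 lowest. The mean of uniq_4334294 was 14.5 times higher and that of uniq_2840641, of 32 nt, 9.93 times higher in immature testis. uniq_3969839 differed less, with 29.5, 31.99 and 19.1 CPM in the mature libraries against 56.4, 137 and 93.7 CPM in the immature libraries (log2 fold change −1.83 ± 0.66 SE, edgeR adjusted p = 0.00605). Without mature replicate 3 it was not called (log2 fold change −1.64, edgeR adjusted p = 0.0627).

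Among the most abundant members, 3 were higher in mature testis with column totals but not called with TMM factors. uniq_1864168 stood at 209, 167 and 468 CPM in the mature libraries, against 7.96, 60.5 and 37.6 CPM in the immature libraries. The groups did not overlap, yet each varied widely (log2 fold change 2.98 ± 0.71 SE, edgeR adjusted p = 4.14e-05; with TMM factors 0.42, adjusted p = 0.62), and the ratio of mature to immature testis was 7.95, or 12.3 without immature replicate 2. uniq_4931184 stood at 282, 161 and 402 CPM, against 23.2, 41.8 and 27.4 CPM (3.19 ± 0.72, edgeR adjusted p = 1.55e-05; with TMM factors 0.59, adjusted p = 0.476). In uniq_4721357 the mature libraries held 145, 183 and 142 CPM and the immature ones 6.51, 15.8 and 9.57 CPM (3.86 ± 0.74, edgeR adjusted p = 6.28e-07; with TMM factors 1.30, adjusted p = 0.109). With DESeq2 and its own size factors, uniq_4721357 was called (DESeq2 adjusted p = 0.000669). There uniq_1864168 and uniq_4931184 were not (DESeq2 adjusted p = 0.393 and 0.207).

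The 5 members named for mature testis were less abundant, of 30 to 32 nt, and at most 6.39 CPM in any immature library. uniq_4624556 stood at 125, 97.97 and 108.5 CPM in the mature libraries, against 1.45, 4.69 and 3.42 CPM in the immature libraries, a ratio of 34.7 of mature to immature testis (log2 fold change 5.05 ± 0.80 SE, edgeR adjusted p = 2.01e-09; with TMM factors 2.50, adjusted p = 0.00151). uniq_3797724 stood at 46.4, 82.1 and 35.4 CPM in the mature libraries, and all of its 15 immature reads were in replicate 2. Without that library it was at least 51.8-fold higher in mature testis, against a floor of 3 reads over the other two. uniq_3664927 was 52.3 times, uniq_4292137 28.9 times and uniq_1871373 50 times higher in mature testis. The last ratio rested on a few immature reads and was 89.9 without immature replicate 1 and 33.3 without immature replicate 3. With TMM factors the adjusted p of the 5 ran from 0.00112 to 0.0225. All 5 lacked guanine at position 10.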

How the data were processed

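Per the file headers, the deposited values are counts: whole reads of every distinct sequence in 6 libraries, with no scaling. The submitters' processing notes name Bowtie, without a version. How piRNAs were called, and on which genome build, is not stated in the labels. All 6 columns were used and 0 entries lacked a sequence. Totals count called piRNAs, not sequencing depth, and 0 reads allow up to 3, or 0.659 to 0.744 CPM in mature and 1.28 to 2.17 CPM in immature libraries. Intervals and floors cover counting error only.

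Members were selected by letter. Shares were compared by an exact permutation test. Single sequences were tested with edgeR 4.0.16 (R 4.3.3), filterByExpr defaults, column totals; TMM factors, DESeq2 1.42.0, other filters, a replicate block, other weightings and left-out libraries were alternatives. The scripts were tested on simulated data. Libraries of a group differed beyond counting noise (chi-square of 4.14 to 12.6 per member sequence with at least 20 reads in a pair). The structured RNA list is 19 human sequences written by hand, and exact matches to it are not printed. No genome was used, so no positions are given. Named sequences are the 10 members of highest mean CPM, the 5 of highest CPM called in each direction on both scales, the 3 leading 5′ end families, and the 3 leading members per base at position 10. Members, lists and rules were chosen with earlier results of these data known.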

Additional observations from a re-analysis of the deposited data

How the results depend on the processing

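The direction of the shares of 29 to 32 nt, mean length, bases at position 10, structured RNA matches and U-first relatives with the same bases 2 to 25 was kept under all alternatives run. Differences below are mature minus immature testis. With each distinct sequence counted once, the members' share turned to 0.196 points and the share lacking adenine at position 10 among C-first sequences to 6.45 points. Without the 100 most abundant sequences, that share differed by 1.10 points. The members' share of distinct sequences turned to −0.140 points after thinning. Without sequences with 1 read in all, the shifted-neighbour difference was −0.112 points and the 10 nt excess −3.30 points. The share of the 100 leading members, −0.0164 points, turned to 1.01 without structured RNAs, was −14.0 without sequences with 1 read in all, and ran from −0.948 to 0.479 without 1 library. Some differences kept their sign but not their size. Guanine at position 10, −14.95 points, was −28.4 without sequences with 1 read in all and −3.19 with each distinct sequence counted once. Under the same pair of settings uridine there, 9.78 points, was 17.7 and 1.05, cytosine, 5.17 points, was 10.7 and 2.14, and structured RNA matches, −2.61 points, were −5.93 and −0.379. The U-first relatives with the same bases 2 to 25, 20.9 points, were 9.67 and 12.2, and 12.6 after thinning. The causes were not tested.

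The mature-high count of 353 members was 40 with TMM factors and 48 with DESeq2. It was 104 at 10 CPM in 3 libraries, 2076 at 6 reads in all, and 263 to 690 without 1 library. Over all 31788 tested sequences the count of 24713 was 2672 with TMM factors and 4033 with DESeq2. At 10 CPM it was 7572 of 9322, where 193 members were tested, and at 6 reads 91877 of 294186, where 8005 were. Without 1 library it was 19736 to 40498 of 29005 to 52980, where 591 to 1097 members were tested. The immature-high count of 253 was 87 and 1438 under these 2 filters, where fewer and more sequences were tested, and within 1.5 times otherwise. Over all tested sequences the immature-high count was 6462, and 1664 and 53255 under these filters. Replicate numbers did not pair the libraries (correlation of deviations −0.085 to 0.038). The replicate block gave 346 and 250, and 15 and 262 with TMM factors, added after the data were seen. Over all 31788 tested sequences it gave 24251 and 6284, and 693 and 6791 with TMM factors. Immature depth limits members of low count.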

Other observations

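In a search added after the data were seen, a few members had nearly all reads in 1 library. Of 1201 members with at least 30 reads, 16 had at least 95% of them in a single library: 2 in mature replicate 1, 3 in mature replicate 2, 6 in mature replicate 3, 5 in immature replicate 1 and 0 in the other immature libraries. Outside the set 422 of 57017 such sequences did. In the names of substitutions below, the letter of the nearest other sequence comes first, then the position from the 5′ end, then the letter of the member described.

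All 3 of mature replicate 2 differ from uniq_4931184 by G18T over the bases shared with it. The leading one had 213 reads there and 7 in the other libraries, while uniq_4931184 itself had 1168, 649 and 1827 reads in the mature libraries.
uniq_6869045: CtcacttggCtggacactctctggagagc

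In mature replicate 3, uniq_8162759 had 69 reads and 0 elsewhere, and differs by C10T from uniq_3969839, which had 874 reads spread over all 6 libraries. The most abundant such member had 818 reads in that library and 21 in the others.
uniq_8162759: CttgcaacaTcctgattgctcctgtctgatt
uniq_6647627: CtgcatggcGtggaattcttcacctgaga

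Of the 5 in immature replicate 1, 4 differ from their nearest sequence at position 4, by T4G, C4G, T4G and G4T. The leading one had 199 reads there and 6 elsewhere.
uniq_6811611: CtcggtgctGattgtcacgttctgatg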
